A study of Mus musculus with 3 samples.

Results

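EC3 is a cluster of blood endothelial cells from the iridocorneal angle and limbus of the mouse eye, for which *Plvap*, *Ihh* and *Kdr* serve as markers. Its members are the cells that the authors kept and labelled EC3, taken by barcode in 3 droplet libraries. There were 294 such cells among 831 endothelial and 26008 kept cells, namely 118 from control replicate 1, 118 from control replicate 2 and 58 from the *Angpt1*ΔNC library. Control mice were *Angpt1* flox/flox without Cre, and *Angpt1*ΔNC mice carried the same floxed alleles with the Wnt1Cre transgene, which is active in neural crest cells and not in endothelium. The mice had a mixed background bred onto the albino ICR strain and were 6 weeks old. Each library pooled 4 to 6 eyes of 2 to 3 mice, so libraries serve as replicates, and there was a single library (n = 1) of *Angpt1*ΔNC eyes.

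Endothelial cells line vessels, and their type decides what leaves the blood. PLVAP builds the diaphragms that span fenestrae and caveolae, and vessels with such openings include the choriocapillaris under the retina. KDR is the main receptor for VEGF-A, on which fenestrated capillaries depend. IHH is a secreted hedgehog ligand that endothelium of the choriocapillaris gives off to the neighbouring stroma. Capillaries with a barrier, such as those of the retina, instead hold little PLVAP and carry transporters such as GLUT1, the product of *Slc2a1*. ANGPT1, made by neural crest-derived cells of the angle, is the ligand of TEK, a receptor tyrosine kinase of endothelium.

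3 promoters are printed because their genes bear the differences described below: that of *Ihh*, a marker whose level differed between the libraries, and those of *Hilpda* and *Slc2a1*, both known targets of the response to low oxygen, which differed in opposite directions. The sequences are from RefSeq (GRCm38.p6), on the strand of the gene. The *Ihh* window is chr1:74951623-74951922 (minus strand), that of *Hilpda*, the second of 2 listed starts, is chr6:29272376-29272675 (plus strand), and that of *Slc2a1* is chr4:119108495-119108794 (plus strand). Capitals mark GGAA or TTCC, the core bound by ETS factors, in *Ihh*, and ACGTG or CACGT, a form of the hypoxia element core, in the others.
Ihh: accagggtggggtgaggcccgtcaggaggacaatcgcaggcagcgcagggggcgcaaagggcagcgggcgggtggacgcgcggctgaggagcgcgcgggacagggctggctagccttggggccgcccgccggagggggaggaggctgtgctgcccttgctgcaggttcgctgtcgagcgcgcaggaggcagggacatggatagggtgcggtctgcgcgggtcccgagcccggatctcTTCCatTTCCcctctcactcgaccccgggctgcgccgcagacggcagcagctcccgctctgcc
Hilpda: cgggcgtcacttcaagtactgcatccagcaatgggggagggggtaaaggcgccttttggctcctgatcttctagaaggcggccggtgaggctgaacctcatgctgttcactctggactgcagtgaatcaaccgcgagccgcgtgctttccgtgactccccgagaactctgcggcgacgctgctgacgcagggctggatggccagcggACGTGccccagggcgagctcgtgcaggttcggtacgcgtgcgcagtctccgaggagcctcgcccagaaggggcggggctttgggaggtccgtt
Slc2a1: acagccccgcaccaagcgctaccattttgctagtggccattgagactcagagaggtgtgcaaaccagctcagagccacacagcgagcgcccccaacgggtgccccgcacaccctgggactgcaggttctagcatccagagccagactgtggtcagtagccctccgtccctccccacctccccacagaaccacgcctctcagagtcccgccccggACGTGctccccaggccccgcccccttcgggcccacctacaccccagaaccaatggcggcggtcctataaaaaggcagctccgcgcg
The *Ihh* window holds 2 ETS cores, which on both strands occur in 96.0% of the 32851 promoters listed. The windows of *Hilpda* and *Slc2a1* hold 1 ACGTG or CACGT each, which occurs in 19.6% of them, and the earlier *Hilpda* start has none. Other forms of the hypoxia core were not searched. A match describes the letters of the window and not a bound site.

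The EC3 cells held 1097265 UMIs (unique molecular identifiers, counted molecules of RNA) in control replicate 1, 1375451 in the second control and 499726 in the *Angpt1*ΔNC library. The medians per cell were 7364, 10749 and 7507. Values given below as 3 in a row follow this order. Between 13 and 25 kept barcodes were shared by each pair of libraries, and none of them was an EC3 cell. Levels below are means over cells of UMIs per 10,000 UMIs of the cell, and a cell with at least 1 UMI is called positive. The targeted gene *Angpt1* was read in 0 of 118, 2 of 118 and 0 of 58 EC3 cells, and a count of 0 allows shares of up to 2.54% and 5.17%. Among non-endothelial cells its level was 0.586, 0.538 and 0.00345. *Xist* was read in 42 of 58 *Angpt1*ΔNC cells and in no control EC3 cell, and a Y-linked gene in 89, 104 and 10 cells. Sex therefore cannot be told apart from genotype among most EC3 cells. Within *Angpt1*ΔNC, *Xist* was read in 72.4% of EC3 cells and in 40.2% of EC4 cells, so the 2 labels drew on the animals of the pool in different proportions.

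EC3 cells expressed general endothelial genes in every library. *Cdh5*, the adhesion molecule of endothelial junctions, was at 14.9, 14.2 and 17.8 UMIs per 10,000, and *Pecam1* at 7.004, 6.78 and 9.65. The 7 lymphatic genes summed to 1.56, 2.01 and 1.51 UMIs per 10,000, most of it *Flt4* (1.35, 1.75 and 1.30), while *Ccl21a* and *Reln* had no UMI and *Lyve1* was read in 0%, 1.69% and 0% of cells. The same 7 genes summed to 1.36, 1.28 and 1.29 in EC2 and EC4 together. The 12 arterial genes summed to 7.87, 10.3 and 13.7 in EC3, with *Mgp*, matrix Gla protein, the highest (3.48, 6.18 and 7.69) and *Bmx* at 0. The 11 venous genes summed to 10.6, 9.78 and 13.7, with *Icam1*, an adhesion molecule, the highest (7.54, 6.43 and 8.47) and *Ackr1* at 0. Markers of other cells summed to at most 1.57 UMIs per 10,000 for the 7 pericyte genes, 0.860 for 6 stromal genes, 0.540 for 4 surface epithelial genes, 1.32 for 4 melanocyte genes, 0.358 for 5 leukocyte genes and 0.479 for 7 genes of retinal pigment epithelium. *Mki67* and the other cell cycle genes summed to between 0.466 and 0.670.

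*Plvap* was read in every EC3 cell of all 3 libraries. Its level was 42.6 and 40.5 in the controls and 20.4 in the *Angpt1*ΔNC library. The last was thus below both controls, which differed from each other by little. In the other blood endothelial labels *Plvap* was at 11.5, 11.0 and 3.36 (EC2) and at 24.4, 23.98 and 18.9 (EC4). The *Angpt1*ΔNC level was below both controls in each of these labels too. *Kdr* was at 7.76, 9.44 and 4.62 in EC3, and positive cells made up 91.5%, 98.3% and 79.3%. In EC4 *Kdr* was at 7.59, 7.88 and 8.52, so that there the *Angpt1*ΔNC level was the highest of the 3. These genes were among those the cells were clustered on, and the levels describe the label without a test.

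*Ihh* was read in few endothelial cells outside EC3. Within EC3 it was read in 51 of 118 cells of control replicate 1 (43.2%, exact 95% interval 34.1 to 52.7), 59 of 118 of control replicate 2 (50%, 40.7 to 59.3) and 7 of 58 of *Angpt1*ΔNC (12.1%, 4.99 to 23.3). The intervals cover counting error and not the spread between animals. The level was 2.20 and 1.78 in the controls and 0.251 in *Angpt1*ΔNC. EC4 cells held *Ihh* in 7.29%, 7.48% and 1.15% of cells, and control EC2 cells in 0 of 32 and 0 of 38, which at 3 counts allows up to 9.38% and 7.89%. Epithelial cells of the surface (clusters 4 and 5), where the gene should be silent, held *Ihh* in 0.101%, 0% and 0% of cells at medians of 17717, 15168.5 and 15135 UMIs. With each cell thinned to 2000 UMIs, leaving out 2, 0 and 1 shallower cells, the EC3 shares were 26.7%, 23.7% and 8.77%. The *Angpt1*ΔNC cells labelled EC3 thus met the *Plvap* and *Kdr* part of the label at lower levels and the *Ihh* part in few cells.

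**Figure D1:**
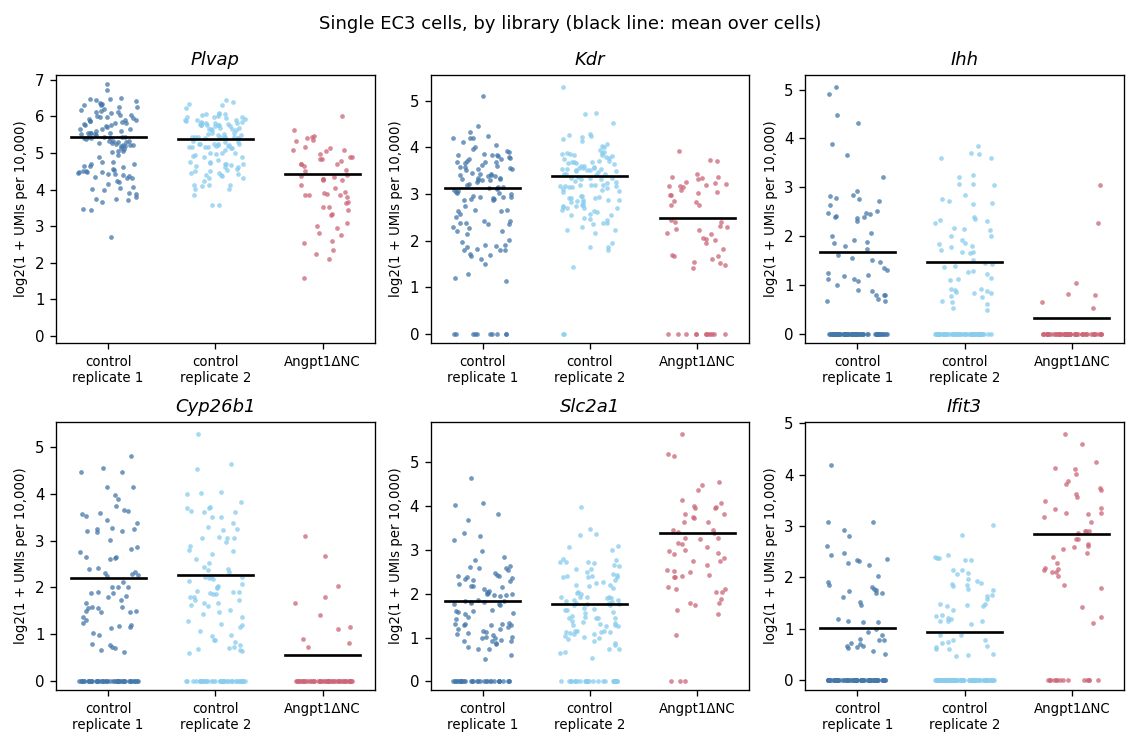
Each point is 1 EC3 cell (118, 118 and 58 cells), with log2(1 + UMIs per 10,000) on the y axis and the library on the x axis, and the black line marks the mean over cells. *Plvap*, *Kdr*, *Ihh* and *Cyp26b1* sit lower in *Angpt1*ΔNC than in both controls, with most cells at 0 for *Ihh* and *Cyp26b1*, while *Slc2a1* and *Ifit3* sit higher.

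Beyond the 3 markers, 20 genes were named for the highest EC3 level relative to EC2 and EC4 together in both controls, among 2892 genes of at least 0.5 UMIs per 10,000. *Apln*, the ligand of the apelin receptor and a gene of sprouting capillaries, led with 0.866, 0.767 and 0.0432 UMIs per 10,000. *Ihh* came next. *Ltc4s*, leukotriene C4 synthase, was at 1.20, 1.20 and 1.14, so the 3 libraries were level. *Ackr2*, a scavenging chemokine receptor, was at 1.28, 1.51 and 0.433, and *Npr3*, the clearance receptor of natriuretic peptides, at 0.763, 0.877 and 0.373.

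*Hilpda*, a lipid droplet protein induced by low oxygen, was at 35.6, 28 and 17.4. *Car8*, a protein related to carbonic anhydrases, was at 4.32, 4.44 and 1.603. *Hopx*, a small homeodomain protein that does not bind DNA, was at 1.01, 1.15 and 0.0349, and *Pdia5*, a protein disulfide isomerase, at 1.76, 1.51 and 0.259. *Smad6*, an inhibitor of BMP signalling, stood at 4.07, 4.61 and 3.03. *Kcne3* and *Kcnk5*, which encode a potassium channel subunit and a potassium channel, were higher in *Angpt1*ΔNC than in both controls, at 1.42 against 0.549 and 0.801, and at 1.37 against 1.21 and 1.17. The *Angpt1*ΔNC level was below both controls for 18 of the 20, where 51.5% of the 2892 genes were. The 20 genes were picked for high values in the controls, so the lower *Angpt1*ΔNC values are not independent of that choice. The ratio to EC2 and EC4 stayed above 1 in *Angpt1*ΔNC for 18 of them. The last of the 20 had a ratio of 2.48, and *Cyp26b1*, *Fam174b* and *Nrarp* followed just outside with 2.48, 2.45 and 2.38.

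**Figure D2:**
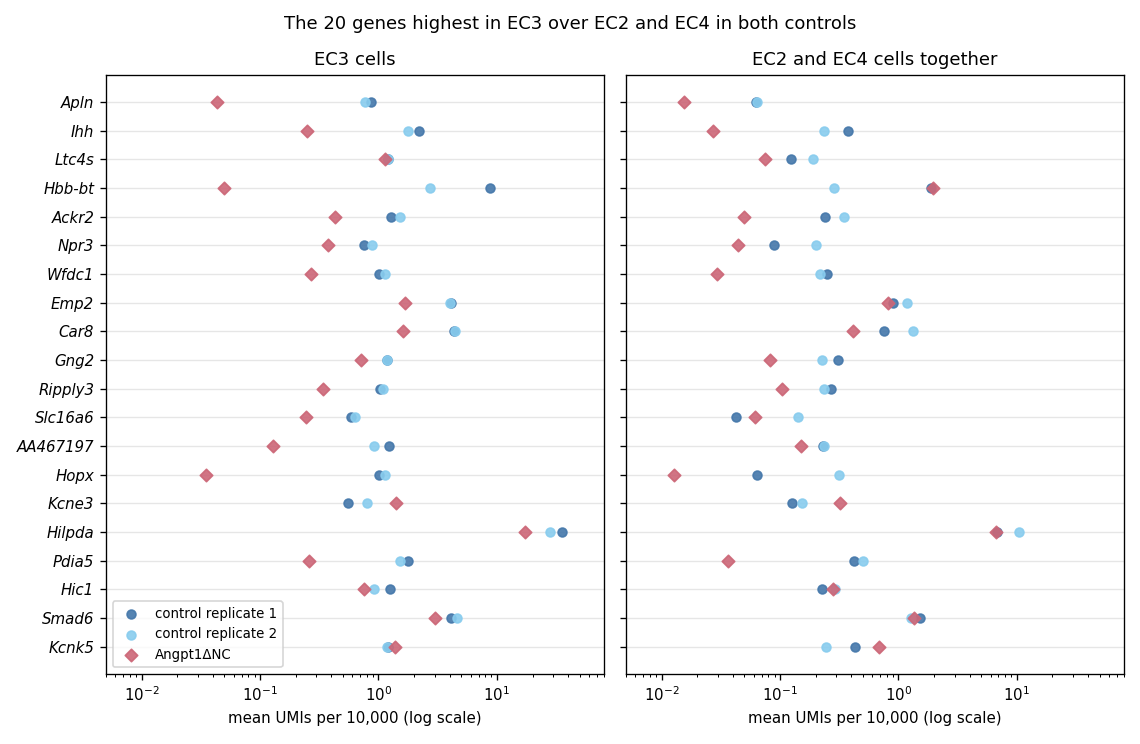
The x axis gives the mean UMIs per 10,000 on a log scale for the 20 genes on the y axis, in EC3 cells (left) and in EC2 and EC4 cells together (right), with circles for the 2 controls and diamonds for *Angpt1*ΔNC. In EC3 the diamond lies left of both circles for 18 genes, and right of them for *Kcne3* and *Kcnk5*.

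Hemoglobin was the exception among these genes. *Hbb-bt* ranked among the 20, yet hemoglobin UMIs came from few cells. The 4 hemoglobin genes had 17212, 8551 and 24 UMIs in EC3, and the median EC3 cell had 0 in each. In the controls the top 5 cells held 99.8% of these UMIs each time. Hemoglobin took over 1% of the UMIs of 3, 3 and 0 EC3 cells. It also did so in 1, 1 and 3 cells of EC4.

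The cells labelled EC3 were compared with mean profiles of the control cells labelled SC (Schlemm's canal), EC2, EC3 and EC4. Of the control cells, 113 and 110 of 118 correlated best with the EC3 profile. Of the 58 *Angpt1*ΔNC cells, 24 did, while 24 correlated best with EC2 and 10 with EC4. The profiles were built from control cells, so control cells had the advantage of contributing to them. Differences given below among the cells closest to the EC3 profile are not independent of that choice.

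A UMI of *Ihh* or of *Cyp26b1*, an enzyme that degrades retinoic acid, was found in 83 of 118 (70.3%), 89 of 118 (75.4%) and 17 of 58 (29.3%) cells. At 2000 UMIs per cell these shares were 44.8%, 49.2% and 15.8%. Among cells with either gene, *Plvap* was at 44.6, 41.4 and 22.1 and *Emcn*, a sialomucin of capillary and venous endothelium, at 24.3, 23.2 and 11.9. Among cells with neither, *Plvap* was at 38.0, 37.7 and 19.7 and *Emcn* at 20.9, 22.3 and 9.47. *Slc2a1* was at 2.63, 2.46 and 5.72 in the cells with either gene and at 2.34, 2.29 and 11.0 in the cells with neither. Cells with either gene were deeper, with medians of 9763, 11286 and 11516 UMIs against 6003, 9478 and 6431. Both genes differed between the libraries and a count of 0 in a shallow cell does not show absence, so the split describes these cells and tests nothing.

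The *Angpt1*ΔNC pool allowed the same levels to be read by typed sex. In its 42 EC3 cells with *Xist*, *Plvap* was at 19.2, *Ihh* at 0.305, *Cyp26b1* at 0.384, *Slc2a1* at 10.5 and *Ifit3* at 5.93. In its 10 EC3 cells with a Y-linked UMI and no *Xist*, *Plvap* was at 24.01, *Ihh* at 0.178, *Cyp26b1* at 0.844, *Slc2a1* at 5.07 and *Ifit3* at 6.97. Each of these values lay on the same side of both controls in both sets of cells. *Ihh* and *Cyp26b1* were each read in only 2 of the 10 cells, so these values rest on few cells. The 10 cells were also deeper, with a median of 11740.5 UMIs against 7548. The values do not tell sex apart from genotype.

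EC3 made up 118 of 295 endothelial cells in control replicate 1 (40.0%, 34.4 to 45.8), 118 of 327 in control replicate 2 (36.1%, 30.9 to 41.6) and 58 of 209 in *Angpt1*ΔNC (27.8%, 21.8 to 34.3). The genes that define EC3 differed between the libraries, so the numbers give the size of the label and are not read as a difference in cell numbers.

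The genotypes were then compared gene by gene. UMI counts of the EC3 cells were summed per library and tested with edgeR's quasi-likelihood test on 7956 genes. At an adjusted p under 0.05 (Benjamini-Hochberg), 581 genes or 7.3% differed, 386 or 4.85% higher and 195 or 2.45% lower in *Angpt1*ΔNC, and the median log2 difference was -0.03. With 1 residual degree of freedom, the spread comes from the 2 control pools and from dispersion shared across genes. The lone *Angpt1*ΔNC library is assumed to vary as the controls do. The size of a p-value moved by many orders between settings, as for *Ifit3* at log2 differences of 2.74 (main), 2.75 (RLE size factors) and 2.73 (without hemoglobin-rich cells). It is therefore not read as strength of evidence. DESeq2 called 123 genes, all of them among the 581, and without the cells rich in hemoglobin UMIs edgeR called 355, again all among the 581. Of the 581 genes, 43 also differed by over 1 on the log2 scale in the same direction in the non-endothelial cells. EC2 and EC4, tested in the same way, also called 127 and 109 of them. The shares of all tested genes that differed so in the non-endothelial cells, or were called in EC2 and EC4, are not given. No overlap is therefore read from these counts.

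Counts of called genes in this list and those below stand beside 4.85% called higher and 2.45% called lower over all 7956 genes. A count of 1 or 2 genes is not read as a result about its list. Among the 12 choriocapillaris genes, 6 were called lower and 1 higher, with a median log2 difference of -0.69. This list holds the markers of EC3, so the count describes the label. *Plvap*, *Ihh*, *Kdr*, *Emcn*, *Nrp1* and *Cyp26b1* were lower and *Vwa1*, a matrix protein, was higher, at 0.505, 0.544 and 1.39. *Cyp26b1* was at 3.61, 3.78 and 0.466 and was read in 60.2%, 66.9% and 19.0% of the cells. *Emcn* was at 23.3, 23.0 and 10.2. Among the cells closest to the control EC3 profile *Plvap* differed by -0.30 on the log2 scale, against -0.84 in all EC3 cells, and was not called. Those cells were picked for resembling control EC3, so the smaller difference is not independent of the pick. Among male-typed cells *Vwa1* differed by 0.65, against 1.65, and was not called either. In the same cells *Kdr* differed by -0.21, against -0.62, and *Nrp1* by -0.70, against -0.72, and neither was called. Of the 12 genes, 4 were also called in EC2 and 1 in EC4, again without a share over all genes beside them. *Igfbp3*, an insulin-like growth factor binding protein, was at 23.5, 26.3 and 25.0, inside the range of the controls, and *Esm1*, an endothelial proteoglycan induced by VEGF, at 4.55, 6.87 and 3.68.

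Of 14 listed genes of endothelial barriers 9 were tested, 4 were called higher in *Angpt1*ΔNC and 5 did not pass, with a median log2 difference of 0.49. *Slc2a1*, the glucose transporter GLUT1, was at 2.55, 2.42 and 9.42 UMIs per 10,000. It rose by 1.96 ± 0.18 (SE) on the log2 scale (edgeR, adjusted p = 2.84e-10). *Slco1a4*, an organic anion transporter of the blood-brain barrier, was at 0.704, 0.611 and 2.37, a log2 rise of 1.94 ± 0.22 (edgeR, adjusted p = 4.36e-08). *Spock2*, a proteoglycan, was at 0.0725, 0.143 and 1.21 and was read in 5.93%, 7.63% and 25.9% of the cells (edgeR, adjusted p = 2.38e-09). *Lef1*, a transcription factor of Wnt signalling, was at 0.251, 0.150 and 0.650 (edgeR, adjusted p = 0.00316).

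*Cldn5*, the main claudin of endothelial junctions, was at 32.3, 34.98 and 40.9, *Abcb1a*, an efflux pump, at 1.26, 1.54 and 1.25, and neither passed the test. *Mfsd2a*, a lipid transporter of barrier endothelium, had at most 0.05 and was too low to test. The next values carry the limit that the closest cells were picked for resembling control EC3. With EC3 cells limited to those closest to the control EC3 profile, *Slc2a1* remained called (edgeR, adjusted p = 3.1e-25), while *Slco1a4* (0.687) and *Lef1* (0.254) did not pass. *Lef1* did not pass with DESeq2 either (adjusted p = 0.364). In male-typed cells *Slc2a1* and *Slco1a4* passed (edgeR, adjusted p = 0.00698 and 0.0435) and *Spock2* did not (0.319).

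In the controls these genes were higher in EC2 than in EC3. *Slc2a1* was at 5.41, 5.13 and 9.83 in EC2 and at 1.13, 2.61 and 2.33 in EC4, and *Slco1a4* at 4.23, 4.32 and 3.87 in EC2 and 0.409, 0.563 and 0.234 in EC4. The EC3 cells of *Angpt1*ΔNC were thus between control EC3 and control EC2 for *Slco1a4*, and above control EC2 for *Slc2a1*. *Vwf*, the clotting factor carrier stored by venous and large vessel endothelium, had the same order, with 0.206, 0.436 and 1.77 in EC3 and 4.01, 1.99 and 4.17 in EC2 (EC3 log2 rise 2.37 ± 0.27, edgeR, adjusted p = 4.38e-08). The venous list had 3 of 9 tested genes called, all higher, namely *Vwf*, *Lrg1* (1.12, 1.08 and 2.13) and *Icam1* (7.54, 6.43 and 8.47). DESeq2 called 1 of the 9. *Icam1* was called neither by DESeq2 nor by edgeR without the cells rich in hemoglobin UMIs.

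**Figure D3:**
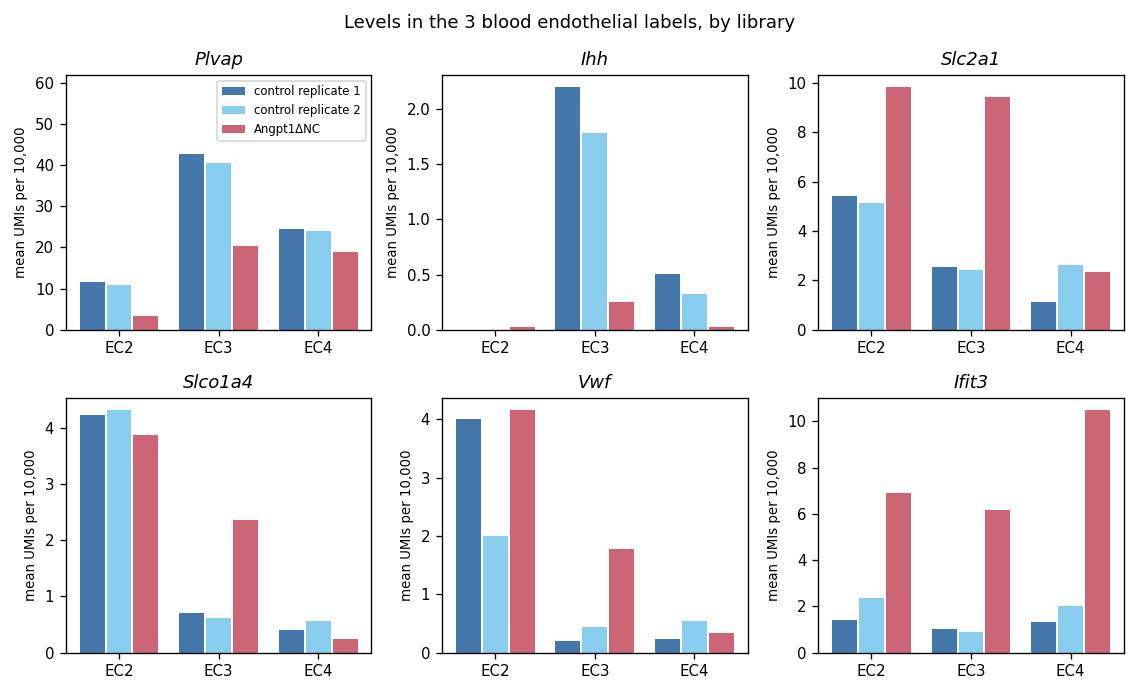
Bars give the mean UMIs per 10,000 (y axis) in cells labelled EC2, EC3 and EC4 (x axis), for the 2 controls and *Angpt1*ΔNC, without error bars since each bar is 1 library. *Plvap* and *Ihh* in EC3 are lower in *Angpt1*ΔNC, while *Slc2a1*, *Slco1a4* and *Vwf* in EC3 are higher in *Angpt1*ΔNC than in both controls.

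Of the 15 listed genes induced by interferon, all were tested and 10 were called higher in *Angpt1*ΔNC, with a median log2 difference of 0.87, and DESeq2 called 8. *Ifit3*, an antiviral protein, was at 1.03, 0.909 and 6.18 and rose by 2.74 ± 0.19 on the log2 scale (edgeR, adjusted p = 6.48e-14). *Ifit1*, of the same family, was at 1.29, 1.18 and 5.45 (edgeR, adjusted p = 1.3e-11). *Rsad2* was at 3.30, 2.49 and 6.36, *Ifi44* at 0.502, 0.592 and 2.04, and *Isg15*, a ubiquitin-like protein, at 16.4, 13.7 and 26.1. *Irf1* (3.78, 2.49 and 2.83) and *Irf7* (2.46, 1.96 and 2.35), transcription factors of this response, stayed inside the range of the controls.

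Outside EC3, 5 of the 15 listed genes were called in EC2 and 7 in EC4, counts that also lack a share over all genes. *Ifit3* was at 1.27, 1.16 and 2.74 in the non-endothelial cells, at 1.42, 2.38 and 6.89 in EC2 and at 1.34, 2.02 and 10.5 in EC4. *Gbp2b*, a guanylate binding protein, was at 0.128, 0.0463 and 2.28 in EC3 and at 0.0329, 0.0278 and 0.650 in the non-endothelial cells. Of the 9 genes of MHC class I presentation, 2 were called higher in EC3, *B2m* (11.7, 13.6 and 21.9) and *Psmb8*, an immunoproteasome subunit (4.06, 3.27 and 6.35). *H2-K1*, a heavy chain of MHC class I, was at 24.3, 23.96 and 22.8.

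In the BMP and activin list 16 of 20 genes were tested, 3 were called higher and 1 lower. *Bmp4*, a ligand, was at 0.491, 0.656 and 1.22 (edgeR, adjusted p = 1.41e-05). The receptors *Acvrl1* (4.63, 6.32 and 4.24), *Eng* (11.2, 10.5 and 10.0) and *Bmpr2* (3.52, 5.13 and 3.43) did not pass the test. Of the targets, *Id1* was at 2.96, 4.27 and 7.46 and *Id3* at 12.5, 11.2 and 18.8, both called higher, while *Id4* was at 4.82, 4.91 and 1.87 and was called lower, by -1.11 ± 0.21 on the log2 scale (edgeR, adjusted p = 0.00031). *Id1* did not pass with DESeq2 (adjusted p = 0.283), *Bmp4* did not pass among the cells closest to the EC3 profile (edgeR, adjusted p = 0.994) and *Id4* not among male-typed cells (0.614). *Id4* was low in EC2 (0.138, 0.426 and 0.203). The value of *Bmp4* among the closest cells is not independent of how those cells were picked.

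Retinoic acid genes differed in both directions, with 2 of 9 tested genes higher and 2 lower. *Stra6*, a receptor that takes up retinol, was at 0.911, 0.927 and 2.29 (edgeR, adjusted p = 1.91e-06), and *Rara*, a retinoic acid receptor, at 0.723, 0.877 and 1.37 (edgeR, adjusted p = 0.00409). *Dhrs3*, which turns retinal back into retinol, was at 3.11, 2.90 and 1.42 (edgeR, adjusted p = 0.017), and *Cyp26b1* was the fourth. The synthesizing enzymes *Aldh1a1*, *Aldh1a2* and *Aldh1a3* were at most 0.05 UMIs per 10,000 in EC3. *Rara* and *Dhrs3* did not pass with DESeq2 (adjusted p = 0.29 and 0.349).

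Of the adrenomedullin genes, the receptor *Calcrl* (0.883, 1.21 and 0.479) and its partner *Ramp3* (9.80, 10.4 and 5.25) were called lower (edgeR, adjusted p = 0.0376 and 0.0165), 2 of 5 tested. *Ramp2* was at 8.90, 10.1 and 5.85 and did not pass. *Ednrb*, an endothelin receptor, was at 7.06, 6.26 and 3.27 (edgeR, adjusted p = 0.00676), and none of the 3 was called by DESeq2 (adjusted p = 0.551, 0.213 and 0.137).

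Receptors of growth factors were mixed. In the VEGF list *Kdr* and *Nrp1*, its co-receptor (3.09, 2.84 and 1.66), were called lower and *Nrp2* (3.14, 3.67 and 4.63) higher, 3 of 6 tested, and their adjusted p with DESeq2 was 0.283, 0.444 and 0.341. *Flt1*, the decoy receptor, was at 12.9, 17.0 and 18.5, and *Flt4* at 1.35, 1.75 and 1.30. In the TEK pathway *Tek* itself was at 1.73, 2.04 and 0.864, below both controls, with a log2 difference of -0.53 ± 0.24 that did not pass (edgeR, adjusted p = 0.208). *Angpt2*, the other TEK ligand, was at 1.81, 2.21 and 1.48, *Tie1* at 2.84, 2.84 and 3.00, and *Ptprb*, the phosphatase that acts on TEK, at 4.79, 5.14 and 4.36. *Foxo1*, a transcription factor that TEK signalling restrains, was at 1.87, 2.00 and 3.25 and was the 1 gene of 8 tested that was called (log2 0.93 ± 0.19, edgeR, adjusted p = 0.000985, and 0.0926 with DESeq2).

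EC3 held the hedgehog ligand *Ihh*, while target genes of the pathway were near 0. *Shh* had no UMI in EC3 of any library, and neither had *Dhh*. The target genes *Ptch1*, *Gli1* and *Hhip* were at 0.0330, 0.0532 and 0.0421, at 0, and at most at 0.00977 in EC3. In the stromal label TM7 *Ptch1* was at 0.652, 0.639 and 0.442 and *Gli1* at 0.148, 0.138 and 0.0913 over 667, 739 and 174 cells. *Hhip* was at 0.223, 0.217 and 0.0638 in TM7. Over the 11 labels named TM, *Ptch1* was below both controls in *Angpt1*ΔNC in 9 and above both in 2, and *Gli1* was below in 7 and above in 1. The 11 labels come from the same 3 libraries, and the share of all genes below both controls in them was not counted. Outside them *Ptch1* was above both controls in some labels, such as cluster 21 (0.0752, 0.163 and 0.225). In others, such as cluster 20, it was below both (0.154, 0.158 and 0.0653). These values were not tested.

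Like those of the lists above, the counts of the remaining lists stand beside the 7.3% called over all genes. Notch genes had 1 of 12 tested called, *Hey1* (0.326, 0.296 and 0.663), and *Hes1* was at 13.5, 15.6 and 15.6. Of 13 basement membrane genes, *Col4a1* (5.27, 6.09 and 8.94) and *Col4a2* (3.31, 4.16 and 4.60), which share a promoter region and encode type IV collagen, were called higher. In the sprouting list *Pdgfb*, which recruits pericytes, was at 0.161, 0.259 and 0.756 (edgeR, adjusted p = 6.28e-05), *Kcne3* was called higher and *Apln* lower. In the hypoxia list *Hilpda* was lower and *Slc2a1* higher, while *Ldha* (7.005, 6.54 and 6.28) and *Ddit4* (6.29, 5.78 and 6.21) did not pass, 2 of 11 called. Of the 12 genes of dissociation stress, *Hspa1a* (2.97, 3.58 and 1.12) and *Hspa1b* (1.40, 1.37 and 0.605) were called lower. Arterial genes had *Hey1*, *Sox17* (0.272, 0.206 and 0.582) and *Cxcl12* higher and *Sema3g* lower, 4 of 9 tested. DESeq2 gave the 3 higher ones adjusted p-values of 0.611, 0.368 and 0.212, and it did not call *Sema3g* either. The list for fenestrae and caveolae had *Ehd2* higher and *Plvap* lower, 2 of 9, of which DESeq2 called *Plvap* alone. Lists for pericytes, smooth muscle, stroma, surface epithelium, melanocytes, leukocytes and retinal pigment epithelium had between 1 and 4 tested genes each, and no gene of them passed in edgeR.

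**Figure D4:**
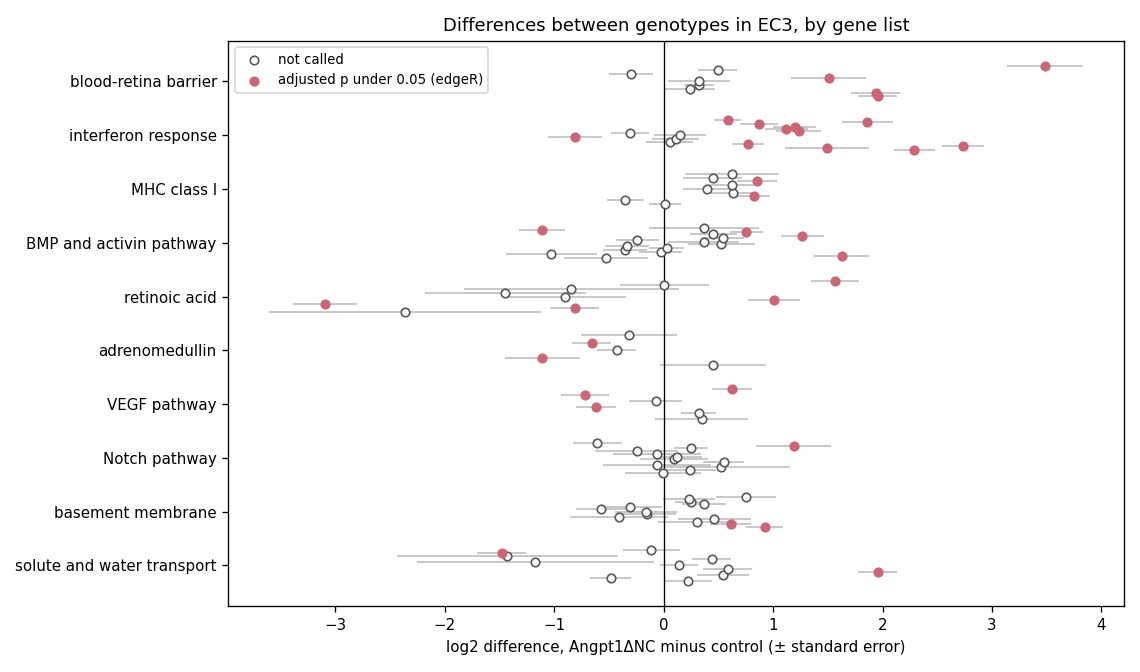
The x axis gives the log2 difference of *Angpt1*ΔNC minus control in EC3 with its standard error, 1 point per tested gene, grouped by list on the y axis, with filled points for an adjusted p under 0.05 (edgeR). The 10 called higher in the interferon list and the 4 in the barrier list lie right of 0, and the retinoic acid list has called genes on both sides.

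Ranked by adjusted p among genes past a log2 difference of 1, the 10 highest besides *Xist*, *Gbp2b*, *Ifit3*, *Ifit1*, *Slc2a1* and *Spock2* held *Mast4*, a kinase (3.11, 3.67 and 11.1), *Nav2*, a neuron navigator protein (0.726, 0.452 and 2.69), *Tpm3-rs7* and *Rpl29*. On the other side stood *Fam174b*, a membrane protein (8.61, 7.54 and 1.74), *Cmc2*, a mitochondrial protein (1.68, 1.55 and 0.0824), *Fabp4*, a fatty acid binding protein with 84, 104 and 0 UMIs, *Cyp26b1*, *Hopx*, 3 hemoglobin genes, *Gm10260* and *Gm11361*. *Mast4*, *Tpm3-rs7* and *Rpl29* were also higher in the non-endothelial cells, by 1.10, 1.43 and 2.01 on the log2 scale. *Gm10260* and *Gm11361* had 414 and 110 UMIs in control replicate 1, 633 and 116 in control replicate 2 and 0 in *Angpt1*ΔNC, and were lower in the non-endothelial cells as well. *Gm10260*, *Gm11361*, *Rpl29* and *Tpm3-rs7* may share reads with near-identical gene copies, so their counts are uncertain.

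Whether the genotype difference in EC3 differed from that in EC2 and EC4 together was tested as an interaction, with library as block. The value is the difference in EC3 minus that in EC2 and EC4. The test takes the labels as given. Of the 58 *Angpt1*ΔNC cells labelled EC3, 24 correlated best with EC2, against 2 and 4 of 118 in the controls. A change in which cells bear a label, or in their sex mix, thus cannot be told apart from a change within EC3. Of 8293 genes 47 passed (0.567%, edgeR, adjusted p under 0.05), 19 of them higher and 28 lower in EC3, while 714 had an unadjusted p under 0.05. *Tm4sf1*, a surface protein of endothelium, was at 41.4, 45.1 and 93.7 in EC3, against 165, 135 and 161 in EC2 and 79.8, 78.0 and 97.2 in EC4. Its difference was 0.81 ± 0.11 larger in EC3 (edgeR, adjusted p = 0.000224). *Slco1a4* (1.91 ± 0.33, adjusted p = 0.00544), *Vwf* (1.71 ± 0.33, adjusted p = 0.0136) and *Spock2* (2.07 ± 0.38, adjusted p = 0.0104) passed in edgeR as well, and *Slc2a1* did not (1.06 ± 0.24, adjusted p = 0.0523). *Rsad2* differed less in EC3 than in the others (-0.98 ± 0.20, edgeR, adjusted p = 0.0232), and *Ifit3* (adjusted p = 0.826) and *Ifit1* (0.558) did not pass. With EC4 alone as the comparison 7 genes passed, with EC2 alone 63, and with DESeq2 8.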

How the data were processed

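RNA of single cells from the anterior eye was counted in 2 control libraries and 1 *Angpt1*ΔNC library, made by droplet capture. The authors aligned reads with Cell Ranger (2.1.1 in the submitters' processing notes but 3.0.2 in the headers of the count files, build mm10) and deposited raw UMI counts per gene in each called cell. They kept cells with at least 200 genes, at least 1000 UMIs and at most 10% mitochondrial UMIs, removed doublets with scDblFinder, integrated the libraries and clustered the cells in Seurat 3.1.3. The cluster labels were taken from their deposited tables. The integrated natural log values in those tables were not used.

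Counts of the cells labelled EC3 were summed per library and compared between genotypes with edgeR 4.0.16 in R 4.3.3 (TMM factors, filterByExpr, quasi-likelihood F-test). Standard errors are the log2 difference divided by the root of F. The interaction fit used EC3 sums and EC2 plus EC4 sums of each library. DESeq2 1.42.0, other size factors, filters, cell subsets and left-out controls were alternatives, and leaving out cells in which hemoglobin took over 1% of the UMIs was added after seeing the data. The fits were checked on counts drawn with known changes, with the same dispersion for the *Angpt1*ΔNC library as for the controls. That check could not test whether the lone *Angpt1*ΔNC library varies as the controls do. Cells were typed as male by a Y-linked UMI in the absence of *Xist*. The best profile is the highest Pearson correlation of log values. Exact intervals are Clopper-Pearson 95% intervals (scipy 1.17.1), and a count of 0 is given the limit that 3 counts set. Both cover counting error only.

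Named genes are the 20 highest in EC3 over EC2 and EC4 in both controls (0.1 added), up to 10 per direction with the smallest adjusted p past a log2 difference of 1 and outside both controls, up to 10 from the interaction, and fixed lists. The members and lists were chosen with earlier results of these data known. Figures were drawn with matplotlib 3.10.9. The result of 1 listed gene is not reported here.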

Additional observations from a re-analysis of the deposited data

Results flagged for a closer look

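Differences between genotypes that were not the same in EC3 as in EC2 and EC4 (edgeR interaction, Benjamini-Hochberg over 8293 genes) had the smallest adjusted p for the following 10 genes, given as log2 difference in EC3 minus that in EC2 and EC4. The 4 hemoglobin genes gave -8.43 (*Hbb-bs*), -10.59 (*Hbb-bt*), -8.91 (*Hba-a1*) and -8.29 (*Hba-a2*), and hemoglobin took over 1% of the UMIs in 3, 3 and 0 cells of EC3 and in 1, 1 and 3 cells of EC4. *Cyp1a1*, a target of the aryl hydrocarbon receptor, gave -3.50, with 0.785, 0.217 and 0.145 UMIs per 10,000 in EC3 and 4.92, 1.76 and 4.69 in EC4. *Mgp*, matrix Gla protein, gave 1.38, with 3.48, 6.18 and 7.69 in EC3 and 65.2, 81.8 and 44.5 in EC2. *Tm4sf1* gave 0.81. *Hmox1*, heme oxygenase, gave 1.32, with 13.9, 11.9 and 8.03 in EC3 and 13.9, 14.4 and 3.85 in EC4. *Klf2*, a transcription factor induced by flow, gave 1.54, with 4.64, 3.50 and 3.25 in EC3 and 16.4, 8.37 and 3.14 in EC4. *Nupr1*, a stress-induced nuclear protein, gave 1.84, with 2.64, 5.76 and 1.57 in EC3 and 12.1, 8.57 and 1.01 in EC4. For *Hmox1* and *Klf2* the difference within EC3 itself did not pass the test (edgeR, adjusted p = 0.232 and 0.985). The limit given above for the interaction holds here too, since the cells that bear a label may differ between the libraries.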

How the results depend on the processing

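The 581 genes that differed between genotypes in EC3 became 123 with DESeq2, 368 with 58 cells drawn from each library, 151 in male-typed cells (89, 104 and 10 cells) and 355 without cells rich in hemoglobin UMIs. With other size factors, no filter, cells closest to the EC3 profile, or genes at or above their non-endothelial level, the count stayed within 1.5 times. Of the 370 genes past a log2 difference of 1, 339 and 346 kept it without control replicate 1 and 2, as fold changes with no test. The 47 interaction genes became 8 with DESeq2, 88 with no filter and 7 with EC4 alone. The EC3 share of *Angpt1*ΔNC, as a percentage of the control mean, was 72.9, and 31.6 by closest profile and 37.5 in male-typed cells, and 76.9 or 69.4 without control replicate 1 or 2. Choriocapillaris genes below both controls numbered 9 of 12, with 8 to 10 under the alternatives. *Esm1* turned to 0.11 in male-typed cells and *Hbb-bs* to 0.10 without cells rich in hemoglobin UMIs. Over 31 single genes and 8 settings with a test, 213 of 238 values kept direction and call, and the 62 values without 1 control, which have no test, kept their direction. Most of these genes were picked for the smallest adjusted p in the same data, so the count does not measure how stable calls are. Genes never called counted as kept when they stayed uncalled, and values in the same direction without an adjusted p were left out. No paired analysis was possible because the groups share 1 replicate number. The cause of these changes was not tested. With 1 *Angpt1*ΔNC library, and 58 cells in it, the spread between knockout animals is not measured.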
